A study of Mus musculus with 2 samples.

Results

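The microRNA hairpins Mir322, Mir503, Mir351, Mir542, Mir450a-2, Mir450a-1 and Mir450b lie one after another on the X chromosome of the mouse, and their levels were measured in the developing limb. The members were chosen by name and position, not by their values: they are the 7 hairpin genes of this cluster, out of 1973 microRNA gene rows in the count tables. The gene annotation, matched to the Ensembl identifiers of the count tables, held 5 of them under these names. Mir450a-1 and Mir450a-2 were found by a RefSeq synonym of the annotated symbols Mir450-1 and Mir450-2. Limb tissue of B6NCrl mouse embryos at 12.5 days of development was sequenced for RNA shorter than 30 nucleotides. There was 1 group, healthy embryos with no treatment or genetic change named, in 2 biological replicates. Replicate 1 pooled limbs from 88 embryos and replicate 2 from 68, with males and females mixed in both, so neither single animals nor the sexes can be compared. With 1 group the design gives no contrast between conditions, and the values below are levels, their order and their spread between the replicates.

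MicroRNAs are cut from hairpins in longer transcripts, and 1 or both arms of a hairpin are loaded into Argonaute proteins, where the bases near the 5′ end of the arm, the seed, pair with messenger RNAs and lower their output. Hairpins in a row on the same strand are often cut from a shared primary transcript, after which each is processed and turned over on its own. The mouse miR-322 is the counterpart of human miR-424, and with miR-503 it is known from mouse muscle cells in culture for helping cells to leave the cell cycle by acting on Cdc25a, a phosphatase that drives the cycle. In muscle, cartilage and other mesenchymal tissues the cluster is studied in the context of the switch from division to differentiation.

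The locus spans 6353 nucleotides at chrX:53047997-53054349 on the minus strand of GRCm38, the assembly also called mm10. In the direction of transcription Mir322 comes first (ENSMUSG00000065418.1, 53054255 to 53054349), followed after 200 nucleotides by Mir503 (ENSMUSG00000076122.1, 53053984 to 53054054) and after a further 630 by Mir351 (ENSMUSG00000065503.1, 53053255 to 53053353). The widest gap, 3767 nucleotides, separates Mir351 from Mir542 (ENSMUSG00000076140.1, 53049403 to 53049487). Mir450a-2 (ENSMUSG00000076399.1, 53048299 to 53048367) follows after 1035 nucleotides, Mir450a-1 (ENSMUSG00000065486.1, 53048154 to 53048244) after 54, and Mir450b (ENSMUSG00000076050.1, 53047997 to 53048078) after 75. No member overlapped another annotated gene, so none is exonic or intronic in the annotation used. The non-coding gene Gm28730 (53051194 to 53053159, minus strand) lies in the wide gap between Mir351 and Mir542, and the processed transcript C430049B03Rik (53055046 to 53057190, minus strand) ends 696 nucleotides upstream of Mir322.

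The mature arms are shown because the seed decides which members, and which genes elsewhere, can be grouped with each other. They are RNA sequences from RefSeq (GRCm38.p6), written 5′ to 3′, with the seed (bases 2 to 8) in capitals.
miR-322-5p: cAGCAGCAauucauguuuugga
miR-322-3p: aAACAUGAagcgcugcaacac
miR-503-5p: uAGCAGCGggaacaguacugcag
miR-503-3p: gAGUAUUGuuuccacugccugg
miR-351-5p: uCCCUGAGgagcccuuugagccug
miR-351-3p: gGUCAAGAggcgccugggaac
miR-542-5p: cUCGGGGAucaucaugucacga
miR-542-3p: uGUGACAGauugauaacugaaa
miR-450a-5p: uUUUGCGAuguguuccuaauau
miR-450a-2-3p: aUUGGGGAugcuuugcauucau
miR-450a-1-3p: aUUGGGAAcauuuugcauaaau
miR-450b-5p: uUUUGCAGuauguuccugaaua
miR-450b-3p: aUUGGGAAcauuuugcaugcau

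Positions are counted from 1 at the 5′ end of an arm. From miR-322-5p to miR-503-5p the first 8 bases differ by C1U and A8G, and 11 of 22 positions are identical, so these neighbours share bases 2 to 7 but not the whole seed. From miR-450a-5p to miR-450b-5p the seed differs by G7A and A8G, with 15 of 22 positions identical. The 3p arms of Mir450a-1 and Mir450b share their seed and 20 of 22 positions, while miR-450a-2-3p differs from miR-450a-1-3p by A7G within the seed and is identical to it at 16 of 22 positions. By bases 2 to 7 of their 5p arms the members thus fall into miR-322 with miR-503, miR-351 alone, miR-542 alone, the Mir450a hairpins together, and Mir450b alone.

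The arm miR-450a-5p is made from both Mir450a hairpins with the same letters, which bears on how their reads could be placed. The hairpins are shown with the stretch they share in capitals.
Mir450a-1: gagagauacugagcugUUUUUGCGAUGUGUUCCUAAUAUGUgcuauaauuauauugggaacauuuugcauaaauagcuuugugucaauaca
Mir450a-2: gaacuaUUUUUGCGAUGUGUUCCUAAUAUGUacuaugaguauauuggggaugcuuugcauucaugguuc

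The shared stretch is 25 nucleotides long, at positions 17 to 41 of Mir450a-1 and 7 to 31 of Mir450a-2, and contains the whole 5p arm. Reads with several mapping places have a row of their own in the count tables and enter no gene, so a read within this stretch belongs to neither hairpin there. Among the 1005 mouse hairpins of the RefSeq table, the longest stretch that Mir450b shares with another is 19 nucleotides, with Mir450a-1. For Mir322, Mir503 and Mir542 the longest shared stretch is 11, 12 and 11 nucleotides, and for the arms of Mir351 it is 10 and 9. None of these stretches is as long as a mature arm.

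The tables held 10646293 reads for replicate 1 and 9738708 for replicate 2, of which 4525636 and 3604284 were counted on the own strand of a microRNA gene. Levels are given as CPM, counts per 1000000 of these gene counts, and cover a whole hairpin, since its arms were not counted apart. How well each sequence was recovered in the library was not measured, so levels of different hairpins compare reads, not molecules. Markers of limb were present: Mir196b of the Hox clusters had a mean of 86831 CPM, the cartilage microRNA Mir140 had 23899, the mesenchymal Mir214 51056, the muscle microRNA Mir206 2347, the ectodermal Mir205 7403, the endothelial Mir126a 18968 and Mir10b, also of the Hox clusters, 20574. The liver microRNA Mir122 stood at 15.0 CPM, beside 0.663 and 0.832 CPM as the level that 3 counts give in replicates 1 and 2. The 3 genes of the brain microRNA Mir124a had 0 counts, but they are known to give the same mature arm, whose reads fit several places and enter no gene row, so these counts say nothing about its level. In bulk tissue, fewer cells of a type and less RNA per cell cannot be told apart.

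Together the 7 hairpins were a large part of the counts assigned to microRNA genes in the limb, and most of it came from Mir322. Their share was 8.33% in replicate 1 and 8.34% in replicate 2, a mean of 8.33% ± 0.0049 (SD, n = 2). Reads that map to several places, 27.2% and 23.7% of all reads in replicates 1 and 2, are in no gene count. The share is therefore of assigned counts only. Mir322 alone made up 82.0% ± 0.84 of the members' counts, Mir351 12.9% ± 1.09, Mir503 3.12% ± 0.19 and Mir542 1.48% ± 0.039. Mir450b held 0.433% ± 0.11, Mir450a-1 0.0446% ± 0.0023 and Mir450a-2 0.0187% ± 0.0032. The other 6 hairpins together held 1.45% of all counts in replicate 1 and 1.55% in replicate 2, with an SD of 0.071. Their sum was thus higher in replicate 2, while Mir322 was slightly lower there. Of these 6, Mir503 and Mir450b were also lower in replicate 2.

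The first hairpin of the cluster, Mir322, was the third most abundant microRNA gene in both libraries. It had 311409 counts in replicate 1 and 244651 in replicate 2, which is 68810 CPM (95% interval 68577 to 69044) and 67878 CPM (67618 to 68138). The mean was 68344 ± 659 CPM. The replicates lay close together, with an SD of 0.964% of the mean. Its neighbours in the ranking were Mir335 above, at 76218 ± 6236 CPM, and Mir214 below, at 51056 ± 7523 CPM, in the same order in both libraries.

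Mir503, whose 5p arm shares bases 2 to 7 with miR-322-5p and which lies next to it, stood far lower. Its counts of 12257 and 8964 gave 2708 CPM (2661 to 2757) in replicate 1 and 2487 CPM (2436 to 2539) in replicate 2, with a mean of 2598 ± 156 CPM and rank 62. Mir322 was 25.4 times (25.0 to 25.9) as high as Mir503 in replicate 1 and 27.3 times (26.7 to 27.9) in replicate 2. The X-linked Mir532 stood next above it at 2687 ± 57 CPM and was above it in both libraries, while its order with Mir872, next below at 2561 ± 42 CPM, changed between the libraries.

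Mir351 carries the seed of the miR-125 family, the vertebrate relatives of the worm timing microRNA lin-4. It had 45699 and 41069 counts, 10098 CPM (10006 to 10190) in replicate 1 and 11394 CPM (11285 to 11505) in replicate 2, a mean of 10746 ± 917 CPM and rank 21. It was the second hairpin of the cluster by level although the third by position, 3.73 times (3.65 to 3.80) as high as Mir503 in replicate 1 and 4.58 times (4.48 to 4.69) in replicate 2. Mir100 lay above it in both libraries, at 11442 ± 34 CPM, and the order with Mir106b, at 10448 ± 458 CPM, differed between them.

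Past the wide gap the levels were lower. Mir542, whose 3p arm is known from human cells to act on the survivin messenger RNA, had 5480 and 4534 counts. These are 1211 CPM (1179 to 1243) in replicate 1 and 1258 CPM (1222 to 1295) in replicate 2, a mean of 1234 ± 33.3 CPM and rank 88. Its order with Mir15b, at 1267 ± 126 CPM, was not the same in both libraries, and Mir337, at 1094 ± 90 CPM, was below it in both.

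By assigned reads the miR-450 hairpins were the lowest of the cluster, and Mir450b was the highest of them. Mir450b had 1921 and 1070 counts, 424 CPM (406 to 444) in replicate 1 and 297 CPM (279 to 315) in replicate 2, a mean of 361 ± 90.2 CPM and rank 135. It lay below Mir16-2 (367 ± 89 CPM) in both libraries, above Mir155 (338 ± 1.1 CPM) in replicate 1 and below it in replicate 2. Mir450a-1 had 162 and 139 counts, 35.8 CPM (30.5 to 41.8) and 38.6 CPM (32.4 to 45.5), a mean of 37.2 ± 1.96 CPM and rank 240. Mir450a-2 had 62 and 63 counts, 13.7 CPM (10.5 to 17.6) and 17.5 CPM (13.4 to 22.4), a mean of 15.6 ± 2.67 CPM and rank 277.

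The Mir450a copies, which share the whole 5p arm, summed to 49.5 CPM in replicate 1 and 56.0 CPM in replicate 2. Reads that map to several places were 27.2% of all reads in replicate 1 and 23.7% in replicate 2. The part of miR-450a in those reads was not tested, and both levels cover only the reads that could be assigned. On the opposite strand all 7 hairpins had 0 counts in both libraries.

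**Figure D1:**
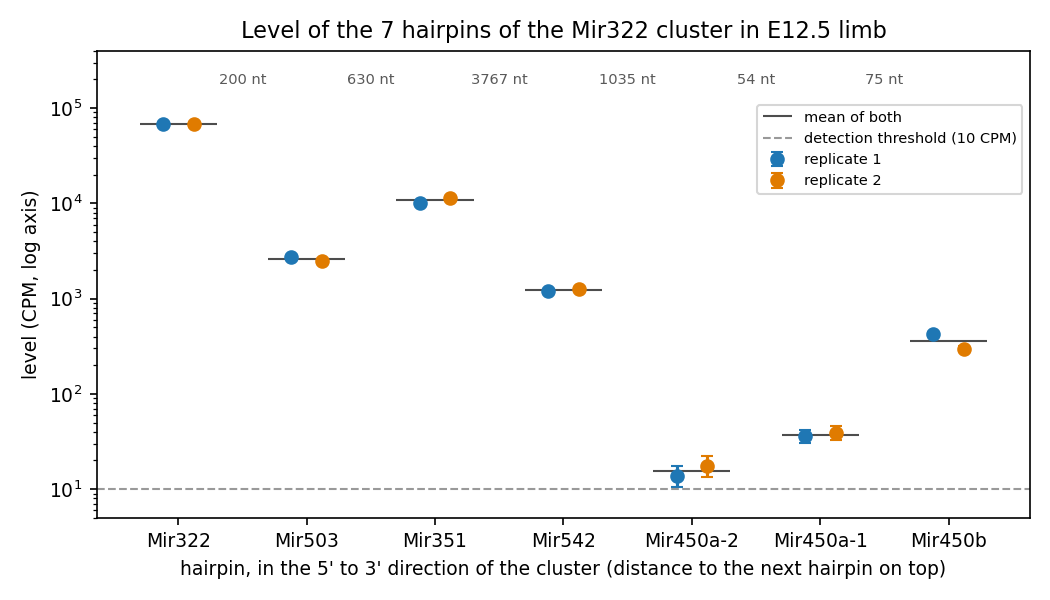
Level of each hairpin in CPM on a log axis, in the order of the cluster from its 5′ end to its 3′ end, with the distance to the next hairpin above. Points are the replicates with 95% counting intervals and short lines are their means. Mir322 stands at 68344 CPM, Mir351 is above Mir503, and the lowest values, at 15.6 and 37.2 CPM, are those of Mir450a-2 and Mir450a-1. These lowest values leave out reads within the stretch that the Mir450a copies share.

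Level and position did not run in parallel, as the plot of the hairpins along the cluster shows. Going from the 5′ end to the 3′ end, the level fell at 3 of the 6 steps and rose at the other 3. From Mir351 to Mir542 it fell by a factor of 8.34 (8.11 to 8.58) in replicate 1 and 9.06 (8.78 to 9.34) in replicate 2. From Mir542 to Mir450a-2 the factor was 88.4 (68.8 to 115) and 72.0 (56.1 to 93.8). From Mir450a-1 to Mir450b the level then rose by a factor of 11.9 (10.1 to 14.0) and 7.70 (6.45 to 9.25). Steps to or from a Mir450a hairpin leave out reads within the stretch that the copies share. Their direction and factors therefore hold for assigned reads only, and the intervals do not cover the missing reads.

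In order of level the hairpins were Mir322, Mir351, Mir503, Mir542, Mir450b, Mir450a-1 and Mir450a-2, in each library. Every step in this order was above 1 with its whole counting interval in both libraries. For the Mir450a hairpins the order is by assigned reads, without those of their shared 5p arm. Mir322 was 6.81 times (6.75 to 6.88) as high as Mir351 in replicate 1 and 5.96 times (5.90 to 6.02) in replicate 2. The smallest steps were those from Mir503 to Mir542, at 2.24 (2.17 to 2.31) and 1.98 (1.91 to 2.05), and from Mir450a-1 to Mir450a-2, at 2.61 (1.94 to 3.56) and 2.21 (1.63 to 3.02). No neighbours within the cluster thus changed places between the replicates. Of the 10 rank neighbours of the 5 members of 100 CPM or more, 4 changed places with a member. The rank neighbours were picked for being nearest in mean level, so these outcomes cannot be set against each other.

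All 7 hairpins passed a detection threshold of 10 CPM in both libraries. Over all microRNA gene rows 286 of 1973 passed it, or 14.5%, and 1256 rows had 0 counts in both libraries. At 100 CPM in both, 5 of the 7 hairpins and 186 of all genes passed. Mir450a-2 lay nearest to the lower threshold, with an interval in replicate 1 that began at 10.5 CPM.

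**Figure D2:**
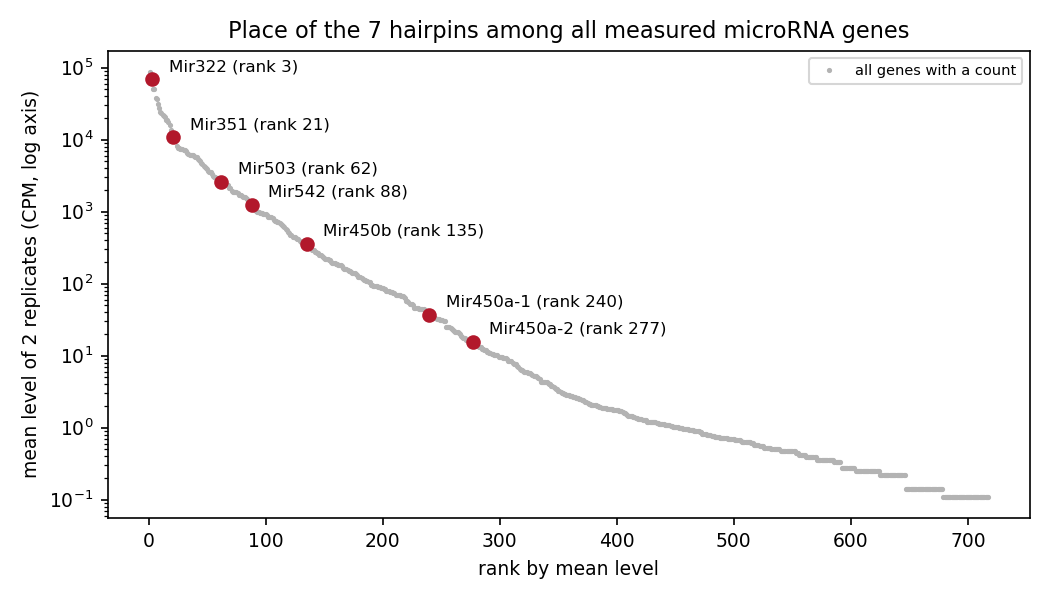
Mean level of every microRNA gene with a count, in CPM on a log axis, against its rank, with the 7 hairpins in red. The members reach from rank 3 (Mir322) to rank 277 (Mir450a-2), and 5 of them lie within the first 135 genes.

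The cluster also held most of the counts that came from X-linked microRNA genes. The 120 gene rows on the X chromosome made up 10.8% of all gene counts in replicate 1 and 11.1% in replicate 2 (10.9% ± 0.24). The 7 hairpins made up 77.4% and 75.1% of these (76.3% ± 1.63). Mir322 and Mir351 were the highest and second-highest genes on the chromosome, followed by Mir652 at 10209 ± 1412 CPM. Mir503 came sixth, Mir542 ninth and Mir450b 17th among the 25 X-linked genes of 100 CPM or more.

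With gene counts as the total, Mir450b moved most between the replicates and Mir322 least among the members of 100 CPM or more. Which member moved least depended on the total and the scaling. Each gene's counts were compared with a two-sided exact binomial test against the ratio of the gene totals, with Benjamini-Hochberg adjustment over the 436 genes whose libraries sum to at least 10 counts and a threshold of 0.05. This test measures counting error between 2 libraries of 1 group, and PCR copies count as reads. By it 182 genes differed, or 41.7%, and 4 of the 7 hairpins did. Replicate 2 was higher for 89 genes (20.4%) and 1 hairpin, and replicate 1 for 93 genes (21.3%) and 3 hairpins. The share of hairpins called is close to that of all genes and is no result about the cluster.

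Mir351 was the hairpin called higher in replicate 2, by a log2 ratio of 0.17 (SE 0.0098, adjusted p = 2.69e-69, exact binomial test). Mir450b was lower in replicate 2, with a log2 ratio of -0.52 (SE 0.055, adjusted p = 1.46e-20, exact binomial test). The levels of Mir503 and Mir322 were lower by less, with log2 ratios of -0.12 (SE 0.020, adjusted p = 3.75e-09) and -0.02 (SE 0.0039, adjusted p = 1.79e-06) in the same exact test. At the depth of Mir322 a ratio of 1.01 between the libraries thus passed the test. For Mir542 the log2 ratio was 0.06 (SE 0.029, adjusted p = 0.124), for Mir450a-1 0.11 (SE 0.17, adjusted p = 0.667) and for Mir450a-2 0.35 (SE 0.26, adjusted p = 0.310), none past the threshold of the exact binomial test. The last of these is larger than the ratio of Mir351, and its counts of 62 and 63 give it the widest error of the 7.

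Set beside all 189 genes with a mean of 100 CPM or more, whose log2 ratios had an SD of 0.32 and a median size of 0.18, Mir450b had the 25th largest ratio in size and Mir322 the 10th smallest. The 7 hairpins had a median size of 0.12. Under a negative binomial exact test in edgeR, which adds the spread estimated from the same libraries, 0 genes were called and 26 had an unadjusted p under 0.05. That spread comes from the very difference under test, so few calls are built in. The absence of calls therefore does not show that the libraries are alike. In that test the adjusted p of Mir450b was 0.946 and those of the other 6 hairpins were 1. With all reads in the tables as the total in place of gene counts, the log2 ratios of Mir351, Mir542 and Mir450a-1 turned to -0.026, -0.14 and -0.092. That of Mir322 was then -0.22, larger in size than that of Mir351.

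**Figure D3:**
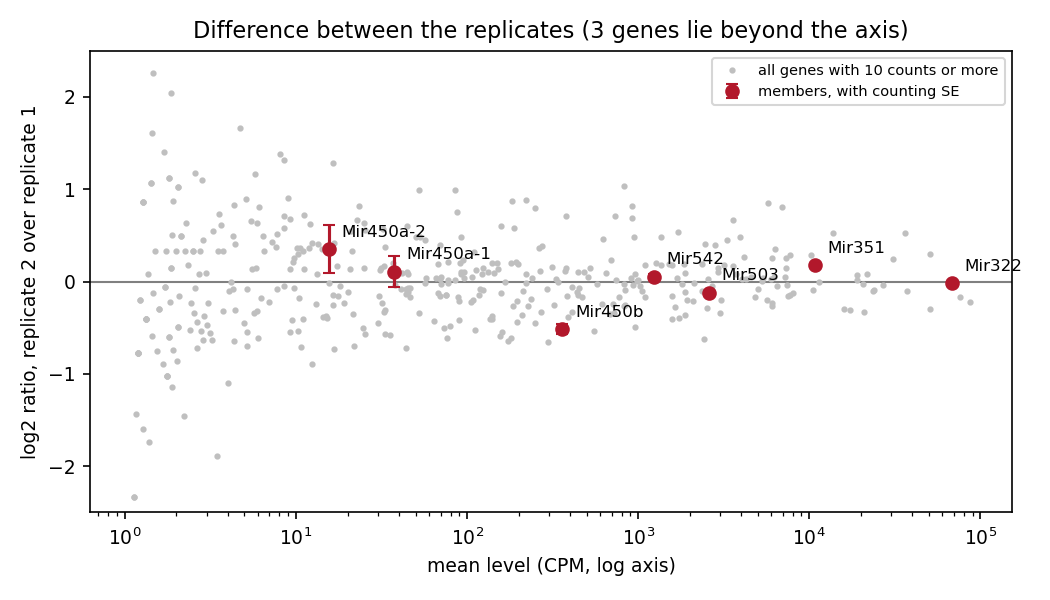
Log2 ratio of replicate 2 over replicate 1 against the mean level in CPM (log axis) for every gene with 10 counts or more, with the 7 hairpins in red and bars of 1 counting SE; 3 genes lie beyond the axis. Mir322 lies at -0.02 and Mir450b at -0.52, both within the band of other genes of 100 CPM or more.

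Among hairpins with a 5p arm of the miR-15 and miR-16 seed, Mir322 had the highest count in the limb. These are counts of whole hairpins, so they include reads of the 3p arm, which has another seed. The miR-15 and miR-16 family is known for holding back the cell cycle through cyclins and other regulators. These relatives of miR-322-5p are shown, from RefSeq (GRCm38.p6), since they carry the same seed in capitals on other chromosomes.
miR-15a-5p: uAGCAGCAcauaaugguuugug
miR-15b-5p: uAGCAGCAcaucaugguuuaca
miR-16-5p: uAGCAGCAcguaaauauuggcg
miR-195a-5p: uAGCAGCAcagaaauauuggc
miR-497a-5p: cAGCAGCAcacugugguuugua

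Among the 10 genes of this seed that have a row in the tables, Mir322 held 90.1% of the counts in replicate 1 and 90.0% in replicate 2 (90.1% ± 0.067) of a family sum of 75885 ± 676 CPM. Mir15a followed at 3379 and 3787 CPM in replicates 1 and 2 (3583 ± 288), and its cluster partner Mir16-1 had 2105 and 1643 CPM (1874 ± 327). Mir15b had 1178 and 1356 CPM (1267 ± 126) and Mir195a 461 and 440 CPM (451 ± 15). Mir16-2, partner of Mir15b, had 430 and 304 CPM (367 ± 89). By assigned counts Mir322 was thus more than 10 times as high as each of these genes in both libraries, with the limit for the Mir16 genes given next.

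The arm miR-16-5p is made from Mir16-1 and Mir16-2 with the same letters, so its reads fit more than 1 place and enter neither gene. How much of it is in those reads was not tested. Mir195b, Mir6342, Mir6353 and Mir6419, whose arms also carry the seed, had 0 counts in both libraries. The gene of miR-497a has no row, and the row of Mir497b, which overlaps it on the other strand, held 3042 and 2326 counts on its opposite strand, or 659 ± 19 CPM. With these counts added to the family, Mir322 held 89.3%, and without Mir16-1 and Mir16-2 92.8%, values chosen after the data were seen. When the family is taken by bases 2 to 7, which lets Mir503 in, the cluster held 90.4% ± 0.081 of 78483 ± 832 CPM.

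The seed of miR-351-5p is that of miR-125, and here other chromosomes gave a large part. These arms have the same first 8 bases as miR-351-5p.
miR-125a-5p: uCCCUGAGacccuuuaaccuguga
miR-125b-5p: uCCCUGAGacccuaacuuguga

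Mir351 held 58.4% of the counts of this family in replicate 1 and 50.4% in replicate 2 (54.4% ± 5.65), of a family sum of 17293 CPM and 22609 CPM. The difference went with Mir125a, which had 5053 CPM in replicate 1 and 8876 CPM in replicate 2 (6964 ± 2703). Mir351 was above Mir125a in both libraries, with 10098 against 5053 CPM and 11394 against 8876 CPM. The hairpins Mir125b-1 and Mir125b-2, which give an identical 5p arm, had 1858 ± 169 and 382 ± 29 CPM from reads that could be assigned. Without these copies the share of Mir351 was 61.4%, a value chosen after the data were seen. Mir6367 and Mir6394, with the same seed, had 0 counts in both libraries.

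The other arms had few relatives. The seeds of miR-542-3p, of miR-450a-5p, of miR-450b-5p and of miR-322-3p matched no other arm of the RefSeq table. The seed of miR-542-5p is shared with miR-6966-5p, whose gene had 0.28 CPM in the mean. The seed common to miR-450a-1-3p and miR-450b-3p is shared with miR-6352, at 0 counts in both libraries.

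**Figure D4:**
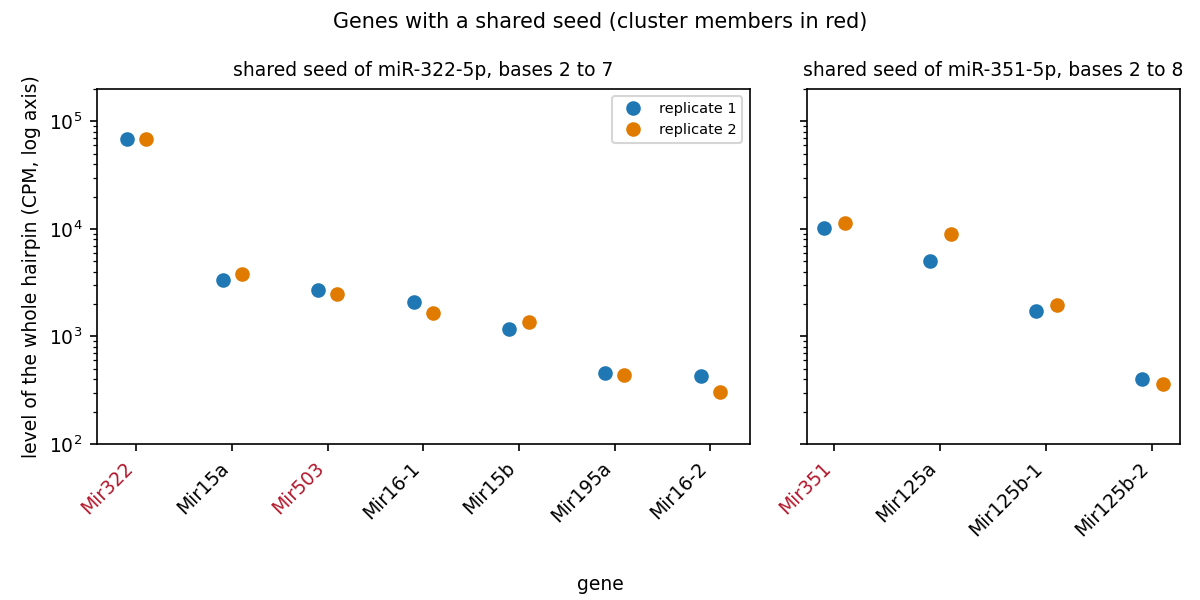
Level in CPM (log axis) of the whole hairpin for genes whose 5p arm shares bases 2 to 7 with miR-322-5p (left) and bases 2 to 8 with miR-351-5p (right), in both replicates, leaving out genes at 0 counts. Cluster members are in red: By assigned counts Mir322 is at least 10 times as high as each relative shown, while Mir125a reaches 8876 CPM in replicate 2 against 11394 CPM for Mir351.

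The hairpins differed in base content along the cluster. In the RefSeq table, which holds 6 of the 7 hairpins, G and C made up 51.6% of Mir322, 54.9% of Mir503 and 51.8% of Mir542, near the median of 51.7% over 1005 mouse hairpins. In the miR-450 hairpins they made up 36.2% (Mir450a-2), 33.0% (Mir450a-1) and 30.5% (Mir450b). The fold energy predicted by RNAfold was -42.9 kcal/mol for Mir322, -37.6 for Mir503, -38.1 for Mir542, -26.5 for Mir450a-2, -41.0 for Mir450a-1 and -31.8 for Mir450b, beside a median of -32.0 over all hairpins. By assigned reads the hairpins of low G and C content were thus also those of low level. By fold energy Mir450a-1 stood close to Mir322, which was far above it in level. The levels of the Mir450a hairpins leave out reads within the stretch that the copies share. Over 6 hairpins of 1 locus this is a description, and the part of base content in the levels was not tested.

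Among same-strand clusters, joined where the gap between hairpins is at most 10 kb, the 7 hairpins had the highest total in the mean and a wide range of level. Their total was 83336 ± 49 CPM. The Mir17 cluster on chromosome 14, known for driving cell growth, came next with 82846 ± 9487 CPM and was above it in replicate 1 (89554 CPM) and below it in replicate 2 (76138 CPM). The order of these totals was therefore not resolved. Each of these clusters also holds 2 hairpins with an arm that has an identical copy in another hairpin. Both totals leave out reads of such arms. Between the highest and lowest hairpin the Mir322 cluster spanned 12.10 ± 0.26 on the log2 scale (12.28 and 11.91), beside a median of 4.27 over the 45 clusters with 2 or more genes of 10 counts or more, and of 10.97 over the 7 clusters with 5 or more.

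The Mir17 cluster spanned 10.97 ± 0.31, the X-linked Mir106a cluster 6.06 ± 0.50 and the Mir183 cluster of sensory cells 1.88 ± 0.0052. In the mean the widest range, 12.42 ± 0.36, was that of the cluster led by Mir487b on chromosome 12, and the cluster led by Mir431 on the same chromosome spanned 11.56 ± 0.75. The order of the Mir322, Mir487b and Mir431 clusters was not resolved, since it differed between the libraries: the ranges were 12.28, 12.16 and 11.03 in replicate 1 and 11.91, 12.68 and 12.10 in replicate 2. The share of the highest hairpin was 82.0% ± 0.84 in the Mir322 cluster, 61.4% ± 1.95 in the Mir17 cluster and 39.9% ± 4.75 in the Mir106a cluster. In 3 of these 4 clusters (Mir322, Mir17 and Mir106a) the lowest hairpin has an arm with an identical copy in another hairpin. These are Mir450a-2, Mir19b-1 and Mir19b-2. Leaving out every hairpin with such a copy, a choice made with the values known, the ranges were 7.59 ± 0.35 in the Mir322 cluster, 8.69 ± 0.27 in the Mir17 cluster and 3.94 ± 0.19 in the Mir106a cluster. On that count the Mir322 cluster was narrower than the Mir17 cluster, the reverse of the order with all hairpins.

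**Figure D5:**
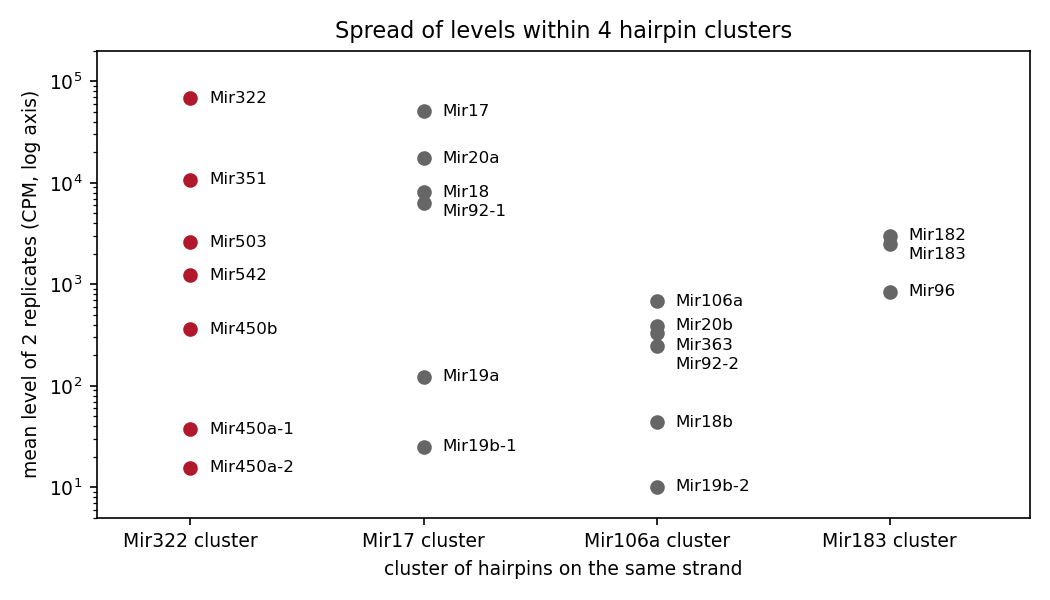
Mean level of each hairpin in CPM on a log axis in the Mir322 cluster (red) and in the Mir17, Mir106a and Mir183 clusters (grey). The Mir322 cluster reaches from 68344 CPM to 15.6 CPM, and the lowest points of the Mir17 and Mir106a clusters are Mir19b-1 at 25.1 CPM and Mir19b-2 at 10.1 CPM.

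The wide gap after Mir351 divides the cluster where hairpins are joined only up to 3 kb. The 5′ group of Mir322, Mir503 and Mir351 then held 81688 ± 101 CPM with a range of 4.72 ± 0.073 on the log2 scale, the 19th widest of 43 clusters so joined. The 3′ group of Mir542 and the miR-450 hairpins held 1648 ± 52 CPM with a range of 6.31 ± 0.21, the 10th widest, and Mir542 made up 75.0% ± 4.4 of it. The lowest level there is that of Mir450a-2, which covers assigned reads only. The 5′ group was thus higher than the 3′ group in both libraries, with 81616 against 1685 CPM in replicate 1 and 81759 against 1611 CPM in replicate 2.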

How the data were processed

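The authors deposited whole-number counts per gene, made on mm10 with GENCODE M4 genes, per the README of each library. The aligner, counter, trimming and multi-mapping settings were not given in the sources used here. The deposited tables hold counts for both strands, the own strand and the opposite strand; the own strand was used. Rows without a gene stayed out of all totals: unmapped (23.8% and 32.6% of reads in replicates 1 and 2), mapped to several places (27.2% and 23.7%), outside genes (6.49% and 6.70%) and ambiguous (0). Gene counts were 42.5% and 37.0% of reads.

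Of 1973 identifiers 1894 matched the GENCODE annotation of GRCm38. Levels are CPM, mean ± SD over the replicates (n = 2). Single-library intervals are 95% Clopper-Pearson and, like the 3-count floor, cover counting error only. P-values concern the difference between these libraries only. Those of the exact binomial test set it against counting error alone and hold no estimate of the spread between replicates. The exact binomial test (scipy 1.17.1, Python 3.11.15) was tested on counts simulated with counting error alone. That simulation had no further spread between libraries, so it does not show how the test behaves under such spread. Log2 ratios have 0.5 counts added. Alternatives used edgeR 4.0.16, DESeq2 1.42.0 (R 4.3.3), other totals, thresholds, cluster gaps and seeds. Folding used RNAfold 2.7.2. A cluster's range used hairpins with 10 counts or more. Named genes were the members, genes with a shared seed, rank neighbours of members at 100 CPM or more, tissue markers and the clusters set beside this one. Members and lists were chosen with earlier results of these data known. Mir652, Gm28730, C430049B03Rik, Mir497b, Mir487b, Mir431, Mir19b-1 and Mir19b-2 were named after their values or positions were seen.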

Additional observations from a re-analysis of the deposited data

Results flagged for a closer look

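Data outside the gene counts held signal that bears on the cluster. Reads that map to several places, which no gene row includes, were 27.2% of all reads in replicate 1 and 23.7% in replicate 2. The part of the identical 5p arm of Mir450a-1 and Mir450a-2 in them was not tested. The opposite strand of the row of Mir497b held 659 CPM in the mean, at the place of the gene of miR-497a, a relative of miR-322 by seed that has no row of its own.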

How the results depend on the processing

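Scaling by TMM (factors 0.993 and 1.007) or DESeq2 size factors changed no call of a member. The member of 100 CPM or more that moved least was then Mir542 in place of Mir322. Their log2 ratios were 0.035 and -0.040 with TMM, and 0.033 and -0.041 with DESeq2 size factors. With all reads in the tables as the total, the share of the 7 hairpins was 3.31% in place of 8.33%, 6 hairpins reached 10 CPM, and the log2 ratios of Mir351, Mir542 and Mir450a-1 reversed to -0.026, -0.14 and -0.092, as this total includes the unmapped share that differs between the libraries. With both strands summed the share was 8.13%. At 100 CPM, 186 genes were detected in place of 286. The negative binomial exact test in edgeR called 0 genes in place of 182, with 26 genes below 0.05 before adjustment and 0.0863 as the smallest adjusted p. Its spread was estimated from the very difference under test, so few calls are built in. The cluster's range was 4.72 in place of 12.10 with clusters joined at 3 kb, where its rank by range fell to 19 of 43, and 7.59 without hairpins whose arm has a second copy. By bases 2 to 7, Mir322 and Mir503 together held 90.4% of the seed family. By bases 2 to 8, where Mir322 held 90.1%, its share was 92.8% without copies and 89.3% with opposite-strand counts added. The share of Mir351 in its family was 61.4% without copies in place of 54.4%. No setting restored the reads of identical arms, such as miR-16-5p and miR-125b-5p, so these values do not bound the shares. The settings on copies and opposite-strand counts were chosen after the data were seen. Leaving out either replicate gave 8.33% to 8.34% for the share, 7 to 7 hairpins detected, 11.91 to 12.28 for the range, and 90.0% to 90.1% and 50.4% to 58.4% for the seed families. Of the values of single hairpins under an alternative, 105 kept their direction and call or moved by less than the spread between replicates, 8 moved further, all by a change of total or strand, and 3 reversed. No paired analysis was possible because there is 1 group. With 2 libraries the SD is itself poorly known. Depth limits Mir450a-2 and Mir450a-1 most, at 62 to 162 counts, the fewest of the 7.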
